A study of Mus musculus with 6 samples.

Results

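The Ms4a cluster is a group of neighbouring genes on mouse chromosome 19 that encode small membrane proteins with 4 membrane-spanning segments. The 8 genes described here, Ms4a1, Ms4a3, Ms4a4b, Ms4a4c, Ms4a6b, Ms4a6c, Ms4a6d and Ms4a7, were given by name, and 7 of them matched a row among the 19436 genes of the table. Ms4a1, which encodes the B cell surface protein CD20, had no matching row and is not analysed here. The members were chosen by their normalized values in the -77-/- and wild type libraries, so that contrast is described for them without a test and nothing is supported with it. Another 2 genes whose names start with Ms4a, Ms4a2 and Ms4a15, also had a row. The GENCODE vM21 annotation places 19 Ms4a genes on chromosome 19, and 9 of these had a row.

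Ms4a proteins sit at the cell surface and in internal membranes, where several of them associate with receptors and with signalling proteins close to the membrane. The family is known for its division among blood lineages. Ms4a1 is a B cell gene, Ms4a2 encodes the beta chain of the high-affinity IgE receptor of mast cells and basophils, Ms4a3 is a gene of granulocyte-monocyte progenitors, Ms4a4b is best known from T cells, and Ms4a4c, the Ms4a6 genes and Ms4a7 are known from monocytes and macrophages.

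RNA came from C57BL/6 mouse fetal livers at stage E14.5, from cells sorted as CD71 medium and Ter119 negative (a gate called R1), which the labels name erythroid precursors. There were 3 wild type libraries, labelled -77+/+ in the design text, and 3 libraries from -77-/- livers, which lack both copies of the -77 enhancer of Gata2, the gene of a transcription factor of early blood progenitors. Both groups share the strain, age, tissue and gate, and the -77-/- livers lacked the enhancer in all cells, not in sorted cells alone. Whether the libraries of a genotype are separate embryos is not stated in the labels, and a p-value then covers only the spread from sample to sample, which may be technical.

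Recovered reads came to 16516338 to 20468899 per library, and 14847 to 18133 genes had a read. Gata2 itself was at 127.6, 87.8 and 61.5 normalized reads in wild type and at 74.2, 26.2 and 34.2 in -77-/-, with overlapping groups (log2 fold change -1.10, limma adjusted p = 0.183). The 10 erythroid markers, all with a row, summed to 33809 to 36297 in wild type and to 3273 to 7345 in -77-/-, so the labelled cell type carried far less of its own marker RNA in the -77-/- libraries. The 7 monocyte markers summed to 1103 to 1934 and to 25577 to 31195. In sorted bulk RNA, a different number of cells of a type and a different amount of RNA per cell cannot be told apart.

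The sequences of the family are shown first. The start regions lie mostly before the start site and do not bear on which reads match. The transcripts, where reads of 50 nt can match more than 1 of these related genes, are compared after them. The start regions of the 2 pairs of close relatives, Ms4a6c with Ms4a6b and Ms4a4c with Ms4a4b, carry the longest stretches shared between any members with a promoter in the reference. Each is given 5' to 3' on the gene's strand, from 250 bases before to 50 bases after the start site, taken from RefSeq on GRCm38.p6, and capitals mark the longest run of letters that the members of a pair share. The windows lie at chr19:11469118-11469417 for Ms4a6c, chr19:11518309-11518608 for Ms4a6b, chr19:11407411-11407710 for Ms4a4c and chr19:11443308-11443607 for Ms4a4b, all on the plus strand.
Ms4a6c: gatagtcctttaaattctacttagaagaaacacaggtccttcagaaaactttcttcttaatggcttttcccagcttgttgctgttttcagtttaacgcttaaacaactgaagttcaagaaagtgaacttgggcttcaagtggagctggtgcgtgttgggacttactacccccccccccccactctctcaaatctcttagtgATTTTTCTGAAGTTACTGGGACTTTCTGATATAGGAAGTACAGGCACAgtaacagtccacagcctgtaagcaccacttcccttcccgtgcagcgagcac
Ms4a6b: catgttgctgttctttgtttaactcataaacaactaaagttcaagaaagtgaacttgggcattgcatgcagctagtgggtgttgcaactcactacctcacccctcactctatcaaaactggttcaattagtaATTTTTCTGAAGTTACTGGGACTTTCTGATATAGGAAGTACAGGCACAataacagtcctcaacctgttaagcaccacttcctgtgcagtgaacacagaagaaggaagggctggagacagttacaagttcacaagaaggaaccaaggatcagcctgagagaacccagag
Ms4a4c: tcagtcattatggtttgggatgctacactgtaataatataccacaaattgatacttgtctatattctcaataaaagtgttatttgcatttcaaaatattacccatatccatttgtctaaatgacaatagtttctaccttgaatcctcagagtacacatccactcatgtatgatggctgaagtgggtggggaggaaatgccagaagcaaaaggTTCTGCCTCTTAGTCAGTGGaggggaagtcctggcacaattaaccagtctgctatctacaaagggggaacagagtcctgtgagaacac
Ms4a4b: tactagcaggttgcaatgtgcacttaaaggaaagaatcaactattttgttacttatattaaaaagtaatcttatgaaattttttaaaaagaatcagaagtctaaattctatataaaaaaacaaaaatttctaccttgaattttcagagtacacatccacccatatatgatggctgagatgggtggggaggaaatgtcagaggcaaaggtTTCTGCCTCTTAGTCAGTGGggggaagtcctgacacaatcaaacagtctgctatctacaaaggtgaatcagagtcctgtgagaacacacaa

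Ms4a6c and Ms4a6b shared a run of 48 bases, at bases 202 to 249 of the Ms4a6c window and 133 to 180 of the Ms4a6b window, so the same letters sit closer to the start of Ms4a6c. Ms4a4c and Ms4a4b shared a shorter run of 20 bases, but their windows matched at 73.8% of aligned positions, gaps counted. No other pair among the 6 members with a promoter shared more than 12 bases in 1 run. Promoters were matched for Ms4a3, Ms4a4b, Ms4a4c, Ms4a6b, Ms4a6c and Ms4a7, and Ms4a1 and Ms4a6d were not matched.

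These windows were searched on both strands for 3 short motifs of blood transcription factors, chosen with the sequences in view. The ETS core AGGAAGT, bound by factors such as PU.1, was found once in the Ms4a6c window, 17 bases before the start, and at 2 places in the Ms4a6b window, 86 and 43 bases before the start. The shared 48-base run holds 1 copy in each gene. Over all 32851 RefSeq promoter windows of this length, 9.35% hold AGGAAGT. The letters GAAANNGAA, a spaced repeat as in interferon response elements, were found in Ms4a6c, in Ms4a6b and in both start windows of Ms4a7, against 8.56% of all promoters. The letters AGATAA, a form of the site that GATA factors bind, are held by 11.2% of all promoters and were in none of the member windows. Other forms of the GATA site were not searched, so the windows are not shown to lack GATA sites. The Ms4a3, Ms4a4b and Ms4a4c windows held none of the 3 motifs in the letters searched. No match of 1 motif overlapped a match of another, and these matches describe letters only.

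The coding sequences of the Ms4a4 and Ms4a6 genes were also the most alike, although the closest relative of Ms4a6b there was Ms4a6d. In the longest open reading frames, Ms4a4b and Ms4a4c matched at 91.8% of aligned positions, Ms4a6b and Ms4a6d at 80.6%, Ms4a6b and Ms4a6c at 75.8% and Ms4a6c and Ms4a6d at 69.2%. The other pairs of members matched at 49.8% to 55.2%. At the scale of a read, 26.5% of the 50-nt windows of the Ms4a6c transcript lay within 2 mismatches of Ms4a6b, and 20.0% of those of Ms4a4c lay within 2 mismatches of Ms4a4b. Ms4a3 and Ms4a7 had no window that close to any other member.

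Exact sharing was smaller. It covered 8.0% of Ms4a4c windows with Ms4a4b and 6.08% of Ms4a6c windows with Ms4a6b. In the opposite direction it covered 2.85% of Ms4a4b and 4.14% of Ms4a6b windows. The values of Ms4a4b, Ms4a4c, Ms4a6b, Ms4a6c and Ms4a6d are therefore uncertain to the extent that the authors' counting split such reads between relatives. A further 55.4% of Ms4a6c windows match transcripts on the other strand, which include the antisense gene BE692007, and the strand setting of the counting is not given in the sources used here.

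**Figure D1:**
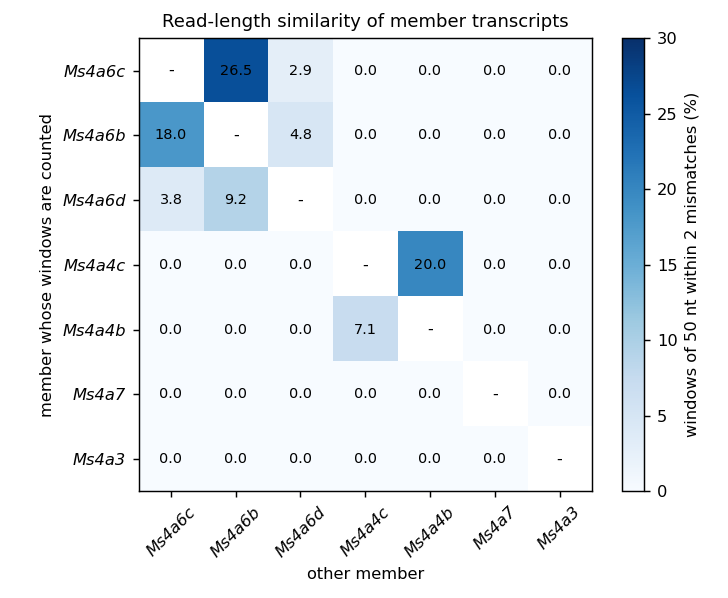
Share of the 50-nt windows of each member's longest coding transcript (row) that lie within 2 mismatches of another member's transcript (column), in percent. Cells above 0 occur only among Ms4a6b, Ms4a6c and Ms4a6d and between Ms4a4b and Ms4a4c, with the highest value, 26.5%, for Ms4a6c against Ms4a6b.

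The similarity map shows the pairs of members between which reads could be exchanged, and ratios of reads within such pairs, not scaled for length, were as follows. Ms4a6b had 4.84%, 2.88% and 0% of the Ms4a6c reads in the wild type libraries and 16.8%, 18.2% and 16.6% in the -77-/- libraries. Ms4a4b had 20.7%, 19.8% and 24.2% of the Ms4a4c reads in the -77-/- libraries. In wild type it had 11, 30 and 2 reads, beside 1, 13 and 1 for Ms4a4c. Ms4a6d had 7, 1 and 0 reads in wild type beside 6, 4 and 0 for Ms4a6b, and 50.5%, 42.4% and 59.4% of the Ms4a6b reads in -77-/-, so this ratio overlapped between the genotypes. How much of any member's value came from reads of a relative was not tested.

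In -77-/- libraries the Ms4a genes of monocytes and macrophages stood at a mean of 214 to 2488 normalized reads for Ms4a4c and the 3 Ms4a6 genes, beside 2.52 to 137 in wild type. The progenitor gene Ms4a3 was 2.06 times as high as in wild type, and Ms4a7 overlapped between the genotypes. Values below are normalized reads, that is, gene counts divided by the size factor of the library, and are given for replicates 1, 2 and 3 in that order. The replicate numbers follow the order of the sample records and pair no libraries, and an SD is over the 3 libraries of a genotype. All 7 members reached the mean of 10 in the higher genotype that the fit asked for, Ms4a4c, Ms4a6b and Ms4a6d only through their -77-/- libraries. Over all 15821 genes tested, 5091 (32.2%) differed between the genotypes, 2681 (16.9%) of them higher and 2410 (15.2%) lower in -77-/- (limma, Benjamini-Hochberg adjusted p of 0.05). For 3959 tested genes (25.0%), all 3 -77-/- libraries lay above all 3 wild type libraries, and this was so for 6 of the 7 members, a count that the choice of members fixed in part and from which nothing is read.

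Ms4a3 (ENSMUSG00000024681), the gene of granulocyte-monocyte progenitors, was the member with the highest level in wild type. It was at 505, 362 and 538 in wild type and at 878, 952 and 1058 in -77-/-. The groups did not overlap, and the means were 468 ± 93.3 and 963 ± 90.2 (SD, n = 3 each). The log2 fold change, taken as the -77-/- minus the wild type mean of log2(value + 1) here and below, was 1.05, and 28.9% of all genes had a higher wild type mean.

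Ms4a6c (ENSMUSG00000079419) was the member with the highest level in -77-/-. Its values were 116, 139 and 156 in wild type and 2302, 2974 and 2187 in -77-/-. The lowest -77-/- library was far above the highest wild type library, and the spread within each genotype was small against that gap. The means were 137 ± 19.9 and 2488 ± 425 (SD, n = 3 each), a ratio of 18.2 and a log2 fold change of 4.17. In -77-/-, 6.66% of all genes had a higher mean.

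Ms4a6b (ENSMUSG00000024677), the gene with the largest log2 fold change of the members, was at 5.63, 3.99 and 0 in wild type and at 386, 541 and 364 in -77-/-. The wild type libraries held 10 of its reads in all and the -77-/- libraries 1363. The ratio of depth-scaled reads was 126, with an exact 95% counting interval of 68.4 to 264, and the log2 fold change was 7.05. By that log2 fold change it stood at place 7 of the 15821 genes. Ms4a6c stood at place 361, Ms4a4b at 1399, Ms4a3 at 4143 and Ms4a7 at 7544. The choice of members fixed these places and those given below in part, and nothing is read from them.

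Ms4a6d (ENSMUSG00000024679) was at 6.57, 0.998 and 0 in wild type and at 195, 229 and 216 in -77-/-. Wild type replicate 1 held 7 of the 8 wild type reads, so the wild type level rests on 1 library, while the -77-/- libraries differed by at most 1.18-fold among themselves. The read ratio was 78.8 (counting interval 39.7 to 183) and the log2 fold change 6.44, at place 22.

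Ms4a4c (ENSMUSG00000024675) was at 0.938, 13 and 1.14 in wild type and at 285, 427 and 250 in -77-/-. Wild type replicate 2 held 13 of the 15 wild type reads. The read ratio was 62.4 (counting interval 37.7 to 112) and the log2 fold change 6.34, at place 25. A value of 3 reads, taken as the floor, corresponds to 2.56 to 3.42 normalized reads depending on the library, so Ms4a4c and Ms4a6d lay below the floor in 2 wild type libraries each, and Ms4a4b and Ms4a6b in 1 each. The floor and the intervals hold for counting error alone, because the libraries were amplified and carried no molecular identifiers.

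Ms4a4b (ENSMUSG00000056290), the close relative of Ms4a4c known from T cells, was at 10.3, 29.9 and 2.28 in wild type and at 59.0, 84.6 and 60.6 in -77-/-. The groups did not overlap, although the wild type libraries differed by 13.1-fold among themselves. The means were 14.2 ± 14.2 and 68.1 ± 14.3 (SD, n = 3 each), and the log2 fold change was 2.70.

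Ms4a7 (ENSMUSG00000024672), a macrophage gene, was at 48.8, 41.9 and 53.6 in wild type and at 90.5, 61.2 and 27.3 in -77-/-. Its -77-/- libraries lay on both sides of all wild type libraries and differed by 3.31-fold among themselves. The means were 48.1 ± 5.86 and 59.7 ± 31.6 (SD, n = 3 each), and the log2 fold change was 0.16. It was the only member with overlapping groups.

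**Figure D2:**
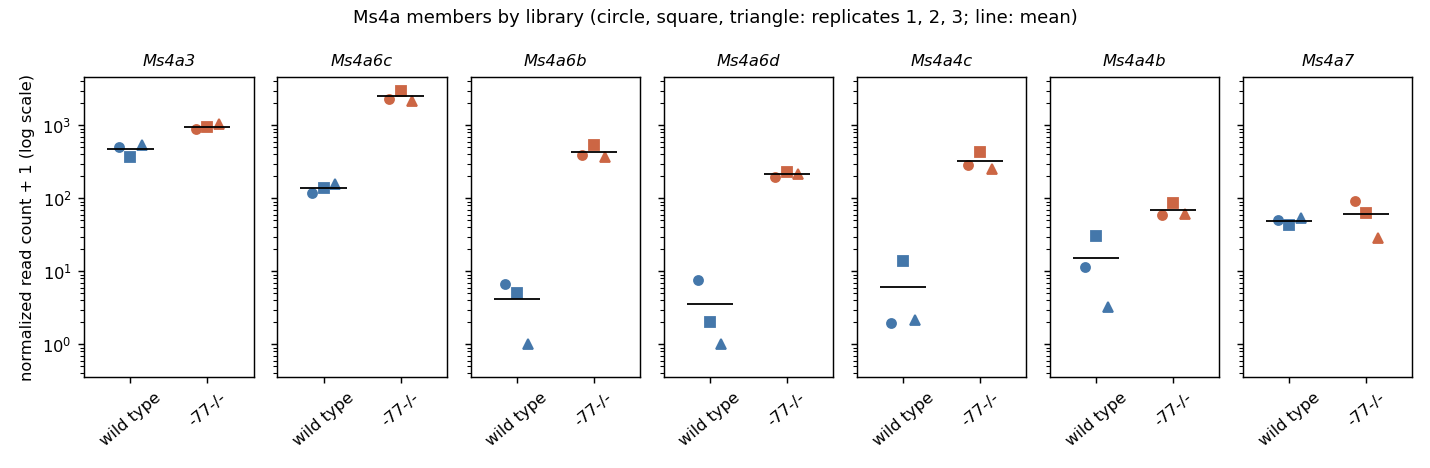
Normalized read counts plus 1, on a log axis, of the 7 members in 3 wild type (blue) and 3 -77-/- (orange) libraries, with circles, squares and triangles for replicates 1, 2 and 3 and a line at the mean. The orange points lie above the blue points for all members but Ms4a7, whose -77-/- points run from 27.3 to 90.5 around its wild type points.

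The plot of the members by library shows that replicate 2 was the highest -77-/- library for Ms4a4b, Ms4a4c, Ms4a6b, Ms4a6c and Ms4a6d. Replicate 3 was highest for Ms4a3 and replicate 1 for Ms4a7. The log2 fold changes of the authors' deposited table were 1.04 for Ms4a3, 2.26 for Ms4a4b, 5.99 for Ms4a4c, 7.01 for Ms4a6b, 4.19 for Ms4a6c, 6.33 for Ms4a6d and 0.31 for Ms4a7. The median log2 fold change of the 7 members was 4.17, a value that the choice of members fixed in part and from which nothing is read.

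Levels of different genes were compared per kilobase of the longest coding transcript. The order depends on which transcript was expressed, which was not tested. That length was 4.75 kb for Ms4a4b and 1.72 kb for its relative Ms4a4c. Without scaling for length, the -77-/- mean of Ms4a4b, 68.1, was above that of Ms4a7, 59.7. The 9 Ms4a genes with a row together came to 482 to 659 normalized reads per kilobase in wild type and to 2670 to 3229 in -77-/-. In wild type the order of the mean levels per kilobase was Ms4a3 at 464, Ms4a6c at 74.4, Ms4a7 at 30.5, Ms4a4b at 2.98, Ms4a4c at 2.91, Ms4a6d at 1.78 and Ms4a6b at 1.2. The first 3 did not overlap each other across libraries, while the last 4 all overlapped. In -77-/- the order was Ms4a6c at 1351, Ms4a3 at 953, Ms4a4c at 186, Ms4a6b at 161, Ms4a6d at 151, Ms4a7 at 37.9 and Ms4a4b at 14.3. There, Ms4a4c, Ms4a6b and Ms4a6d overlapped each other, and Ms4a6c stayed above Ms4a3 in each library.

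The shares of the 9 Ms4a genes with a row in their summed level are given as a description. The choice of members fixed these shares in part, and nothing is read from them. The shares also depend on each other. That of Ms4a3 was lower in -77-/- although its own mean level per kilobase was higher there, at 953 beside 464. Ms4a3 held 74.3% to 81.1% of the summed level per kilobase in the wild type libraries and 29.2% to 38.6% in the -77-/- libraries. Ms4a6c held 10.3% to 15.6% in wild type and 43.8% to 50.03% in -77-/-. Ms4a4c, Ms4a6b and Ms4a6d held 5.0% to 7.67% each in -77-/-, and at most 1.56% each in wild type. Ms4a7 held 5.02% to 5.51% in wild type and 0.639% to 2.15% in -77-/-.

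**Figure D3:**
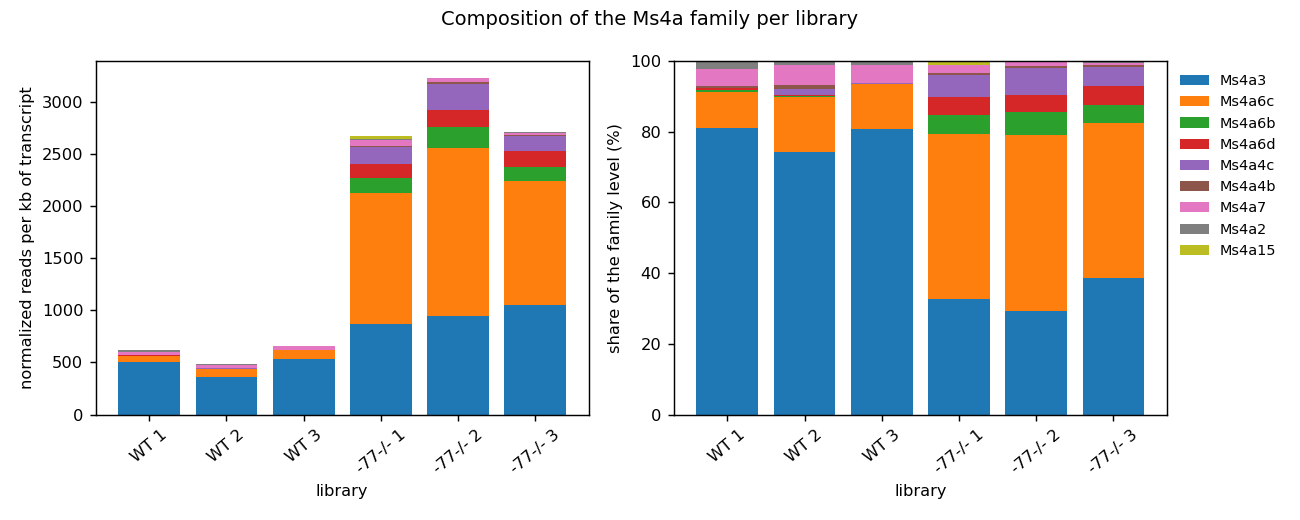
Left, normalized reads per kilobase of transcript, stacked over the 9 Ms4a genes with a row, in each library. Right, each gene's share of that sum in percent. The sums run from 482 to 659 in wild type and from 2670 to 3229 in -77-/-, with Ms4a3 the largest share in all wild type libraries and Ms4a6c the largest in all -77-/- libraries.

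The other genes of the family and the related Tmem176 genes were tested in the fit over all genes. Of these 4 genes, 2 were higher in -77-/- and 2 did not pass, beside 16.9% higher over all tested genes. Both higher genes were Tmem176 genes, and neither Ms4a gene of the list passed. The median log2 fold change of the 4 genes was 4.13, beside 0.10 for all genes tested. With so few genes, nothing is read from these counts or this median. Tmem176b, which encodes a related membrane protein of dendritic cells and macrophages, was at 26.3, 12 and 7.98 in wild type and at 526, 541 and 532 in -77-/-. It rose by 5.18 on the log2 scale (SE 0.50, limma adjusted p = 1.4e-06), higher in 3 of 3 -77-/- libraries. Its neighbour Tmem176a, at 6.57, 0 and 1.14 in wild type, was at 420, 157 and 164 in -77-/- and rose by 6.46 (SE 0.99, limma adjusted p = 0.000137). Replicate 1 was its high -77-/- library.

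Ms4a2, the beta chain gene of the IgE receptor, was at 31, 14 and 16 in wild type and at 9.15, 5.83 and 23.9 in -77-/-. The groups overlapped, and the difference did not pass (log2 fold change -0.74, SE 1.05, limma adjusted p = 0.620). Ms4a15, known from lung, had no read in wild type and was at 49.8, 0.972 and 5.12 in -77-/-, so that 49 of its 56 reads came from replicate 1. It was at least 5.76-fold higher, against a floor of 3 reads in each wild type library, and did not pass (limma adjusted p = 0.178).

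Along the chromosome, members with large and small differences stood side by side. In annotation order the tested genes of the cluster were Ms4a15, Ms4a7, Ms4a4c, Ms4a4b, Ms4a6c, Gm8369, Ms4a6b, Ms4a6d, Ms4a2 and Ms4a3, and the 5 members from Ms4a4c to Ms4a6d had log2 fold changes of 2.70 to 7.05. Ms4a7 with 0.16 and Ms4a2 with -0.74 lay next to them. The predicted gene Gm8369, named here after its values were seen, was at 0 in wild type and at 6.10, 36.0 and 0 in -77-/-.

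Of 14 tested genes that flank the cluster, 5 were higher in -77-/-, 3 were lower and 6 did not pass, with a median log2 fold change of 0.43. Over all tested genes, 16.9% were higher and 15.2% lower. Mpeg1, which encodes the pore-forming protein perforin-2 of macrophages, rose from 290 ± 68.5 to 4202 ± 599 (log2 fold change 3.87, limma adjusted p = 1.4e-09). Slc15a3, a peptide and histidine transporter of endolysosomes, rose from 39.0 ± 15.6 to 424 ± 120 (log2 fold change 3.44). Dtx4, an E3 ubiquitin ligase of the Deltex family, rose by 2.52 on the log2 scale and Fam111a, a protease gene, by 1.53. Tmem132a had no read in wild type and was at 47.8, 51.5 and 60.6 in -77-/-, at least 17.6-fold higher against a floor of 3 reads in each wild type library (limma adjusted p = 0.00193).

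The 3 flanking genes that fell changed little. Mrpl16, of the mitochondrial ribosome, fell by 0.55 on the log2 scale (limma adjusted p = 0.028). Prpf19, a splicing factor, fell by 0.39 (limma adjusted p = 0.0298), and Osbp, an oxysterol-binding protein, fell by 0.36 (limma adjusted p = 0.0422). Patl1, an mRNA decay factor, was the uncalled flanking gene with the highest mean, at 1084 ± 191 in wild type and 1391 ± 93.8 in -77-/-. Without -77-/- replicate 2, and likewise without -77-/- replicate 3, 5 flanking genes passed instead of 8.

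**Figure D4:**
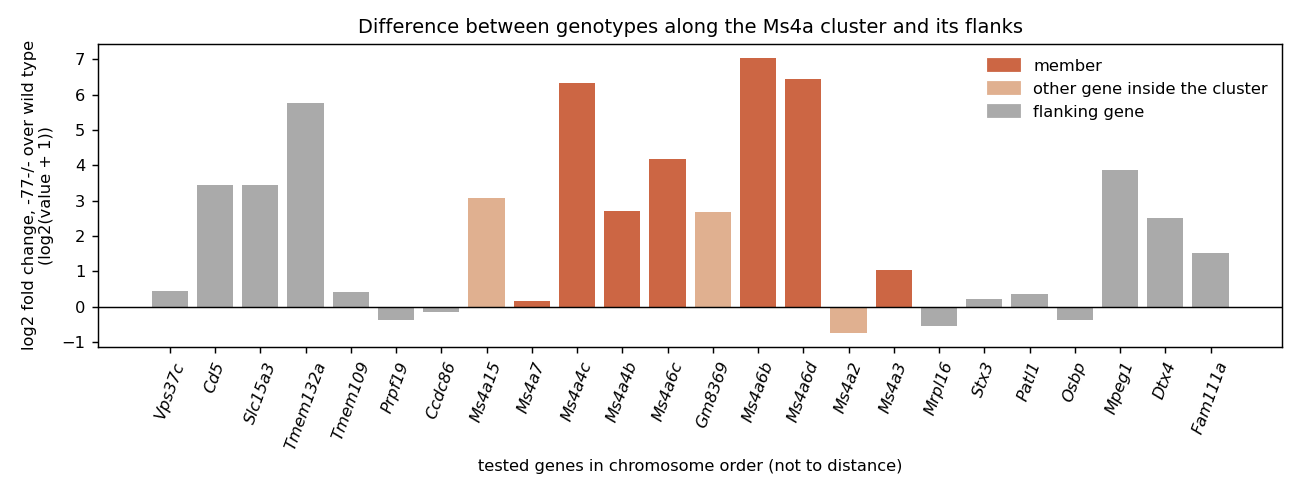
Log2 fold change, -77-/- minus wild type in mean log2(value + 1), for the tested genes of the Ms4a cluster and its flanks in chromosome order (spacing not to distance). Members are dark orange, other genes inside the cluster light orange and flanking genes grey, and bars from Ms4a4c to Ms4a6d, with Gm8369 among them, stand between 2.68 and 7.05, while Ms4a7 and Ms4a2 stand at 0.16 and -0.74.

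The plot in chromosome order shows that the members lay among neighbours of both kinds. Mpeg1 and Slc15a3, flanking genes with large values, were separated from the cluster by other listed genes. Tmem132a, at 5.76, lay next to Slc15a3 on the side of the cluster. The other tested genes in between had log2 fold changes of -0.55 to 0.41, and Prpf19, Mrpl16 and Osbp among them were called lower. Genes outside the list were not looked at.

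Genes of known partners of Ms4a proteins were also counted. Of 10 tested partners, 6 were higher in -77-/-, none was lower and 4 did not pass, beside 16.9% higher and 15.2% lower over all tested genes. The median log2 fold change was 2.09 beside 0.10 for all genes. Clec7a, the beta-glucan receptor dectin-1, rose from 77.0 ± 22.2 to 2632 ± 298 (5.11 on the log2 scale, limma adjusted p = 8.39e-10). Fcer1g, the gamma chain of the IgE receptor and of other Fc receptors, rose from 39.4 ± 16.8 to 544 ± 46.4 (log2 fold change 3.84). Trem2, a lipid-sensing receptor of macrophages, rose by 2.81 (limma adjusted p = 0.00447).

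Among kinases of these pathways, Syk and Lyn passed, while Fyn and Lck did not. Syk rose from 627 ± 46.2 to 3333 ± 145 (log2 fold change 2.41), Lyn from 656 ± 16.8 to 2235 ± 5.53 (1.77) and the membrane adaptor Pag1 from 398 ± 108 to 938 ± 31.4 (1.27). Fyn was at 651 ± 138 in wild type and 635 ± 92.2 in -77-/- (log2 fold change -0.02). Lck was at 17.3 ± 18.2 and 65.9 ± 22.5, without overlap of the groups. Its log2 fold change of 2.44 was above that of Syk but did not pass (limma adjusted p = 0.0699). Cdkn3, a phosphatase that Ms4a3 binds, was at 87.3 ± 50.2 and 77.6 ± 13.9 and did not pass. Its substrate Cdk2, at 903 ± 34.4 and 1102 ± 209, did not pass either.

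Lists of blood cell genes give the cell types known for the members. The counts of these lists stand beside 16.9% higher and 15.2% lower over all tested genes. Of 20 tested macrophage and monocyte genes, 15 were higher in -77-/-, none lower and 5 did not pass, with a median log2 fold change of 3.42. Fcgr1, a high-affinity IgG receptor, rose from 13.5 ± 11.8 to 762 ± 121 (log2 fold change 6.62, limma adjusted p = 0.00438). The macrophage growth factor receptor Csf1r rose from 183 ± 98.4 to 5423 ± 696 (5.01), and Ccr2, a chemokine receptor of monocytes, from 232 ± 76.1 to 5469 ± 571 (4.61). Mrc1, the mannose receptor, was the uncalled gene of the list with the highest mean over all 6 libraries, at 20.8 ± 7.77 and 49.997 ± 5.01. Vcam1, an adhesion molecule and uncalled with nearly the same mean, was at 50.7 ± 31.4 in wild type and 17.2 ± 13.5 in -77-/-.

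Markers of mature tissue macrophages were low beside those of monocytes. Of 10 macrophage markers, 6 had a row and summed to 35.3 to 94.8 in wild type and to 464 to 794 in -77-/-. C1qa, Timd4, Vsig4 and Cd5l had no row and so no value. Most of that sum in -77-/- was Emr1, the gene of F4/80, at 395, 615 and 369 (limma adjusted p = 0.0199). Spic was also higher, at 10.3, 29.9 and 2.28 in wild type and 54.9, 118 and 60.6 in -77-/- (limma adjusted p = 0.033). Cd163 and C1qb did not pass. Marco, too low to be tested, leaned the other way with overlapping groups. It was at 9.38, 6.98 and 0 in wild type and at 0, 0.972 and 5.12 in -77-/-. C1qc was at 0 in all wild type libraries and at 0, 4.86 and 4.27 in -77-/-, and C1qb reached at most 16.2. The part of macrophages or monocytes within the sorted gate in the Ms4a values was not tested.

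The progenitor list was mixed, and it also held genes of maturing neutrophils, so its median is not that of progenitor genes alone. Of 21 tested granulocyte-monocyte progenitor genes, the list of the lineage in which Ms4a3 is known, 10 were higher in -77-/-, 4 lower and 7 did not pass, with a median log2 fold change of 0.10. Cebpa, a transcription factor of the myeloid lineage, rose from 93.4 ± 21.0 to 1289 ± 120 (log2 fold change 3.79), the cytokine receptor chain Csf2rb by 3.74 and the receptor Csf3r by 2.54. The 4 lower genes were all of maturing neutrophils. Camp, a peptide of neutrophil granules, fell by 2.19 (limma adjusted p = 0.000403). S100a9, S100a8 and Fcnb had log2 fold changes of -1.36, -1.45 and -1.28, while the neutrophil genes Ltf and Lcn2 did not pass. Elane, neutrophil elastase, was at 804 ± 372 and 673 ± 103 and did not pass.

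B lineage genes, the group in which Ms4a1 is known, were higher in 10 of 20 tested, lower in none, and did not pass in 10, with a median of 1.52. The interleukin-7 receptor Il7r rose from 32.2 ± 27.5 to 333 ± 104 (log2 fold change 4.06, limma adjusted p = 0.0139), the B cell receptor component Cd79b by 3.23 and Cd22 by 2.37. Pou2af1, a B cell coactivator, was at 97.3 ± 21.4 and 207 ± 142 and did not pass. Replicate 1 was the highest -77-/- library for 17 of the 20, and without it 5 passed instead of 10. The same library was the highest -77-/- library for 17 of 19 tested erythroid genes and 7 of 12 T and NK genes. Among macrophage and monocyte genes it was highest for 2 of 20.

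T and NK lineage genes, the group in which Ms4a4b is known, were higher in 3 of 12 tested and did not pass in 9. Over all tested genes, 16.9% were higher, so nothing is read from this count. The median was 2.46 over the tested genes of the list and 1.06 over all 17 with a row. The costimulatory receptor Cd28 rose from 21.0 ± 21.6 to 319 ± 89.5 (log2 fold change 5.002, limma adjusted p = 0.0217). Gzma, a granule protease, had no read in wild type and was at least 5.14-fold higher in -77-/- against the same floor of 3 reads in each library. Il2rb, a receptor chain for interleukin 2, rose by 3.71 (limma adjusted p = 0.0492). The T cell marker Cd3d was at 211 ± 75.7 and 227 ± 52.5 and did not pass, and Cd3e was at or under 2.92 in every library. With wild type replicate 3 or any 1 of the 3 -77-/- replicates left out, 1 T and NK gene passed instead of 3.

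Mast cell and basophil genes, with which Ms4a2 is usually found, were higher in 2 of 9 tested, lower in 3 and did not pass in 4. Over all tested genes, 16.9% were higher and 15.2% lower, and with so few genes nothing is read from these counts. The median of -0.74 is the value of Ms4a2 itself, which is part of this list. Il1rl1, the interleukin-33 receptor, fell from 318 ± 16.4 to 14.3 ± 12.5 (log2 fold change -5.32, limma adjusted p = 0.00318), while Fcer1g rose and Mitf, a transcription factor, rose by 1.77. Of 19 erythroid genes, 17 were lower in -77-/-, none higher and 2 did not pass, with a median of -4.84. Rhd, a blood group protein, fell by 6.29 on the log2 scale, and its partner Rhag fell by 5.75. Spna1, the older symbol of the alpha spectrin gene, fell by 5.51. Hbb-b2, a beta globin gene, was at 4997 ± 2494 and 479 ± 463 and did not pass (limma adjusted p = 0.053).

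**Figure D5:**
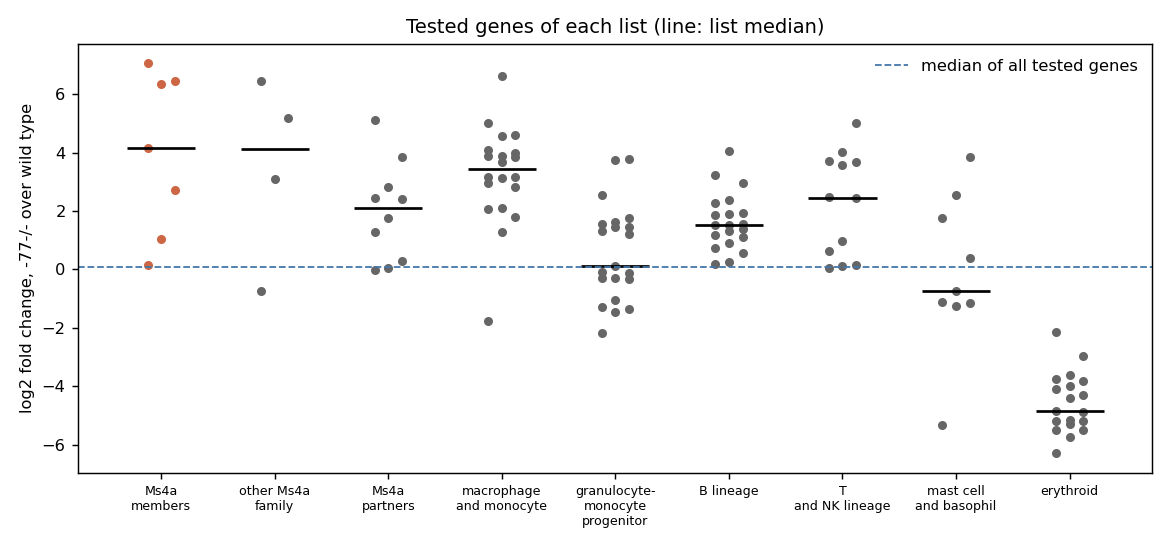
Log2 fold change of -77-/- over wild type for each tested gene of the members (orange) and of the 8 other lists (grey), with a line at each median and a dashed line at the median of all tested genes. The member median is 4.17, a value that the choice of members fixed in part. The macrophage and monocyte median is 3.42, the granulocyte-monocyte progenitor median 0.10 and the erythroid median -4.84.

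The plot of the lists sets the members beside these groups, as a description only, since the choice of members fixed their place in part. Ms4a4c, Ms4a6b and Ms4a6d, at 6.34 to 7.05, lay within or above the upper end of the macrophage and monocyte genes, of which Fcgr1 had the highest value, and Ms4a7 lay below all 15 of those that rose.

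Genes whose values were most like those of a member were listed by Pearson's r of log2(value + 1) over the 6 libraries, among 9744 genes with a mean of at least 100. For Ms4a6c they were Inpp5d, Evi2b and Pkm2, for Ms4a6b Lrp1, Tnfaip1 and Sfmbt2, and for Ms4a6d Slc9a3r1, Atxn1l and P2rx7. For Ms4a4c they were Slc12a9, Ncstn and Plek, and for Ms4a3 Orai2, Actn1 and Clec5a. These r values ran from 0.995 to 1.000, and since the 6 libraries form 2 genotypes, between 426 and 976 genes had an r over 0.95 with each of these 5 members. Ms4a4b and Ms4a7 did not reach a mean of 100 in either genotype and were not searched. The likeness is a description, and it does not set the listed genes apart from the others with such an r.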

How the data were processed

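The deposited table held 1 value per gene and library for 6 libraries, made from 10 ng of RNA each with an amplifying NuGEN kit per the labels' protocols. The tools named, per the submitters' processing notes, are STAR 2.5, RSEM 1.2.31, Bowtie and DESeq2, on mm9. What each did, the annotation and the strand setting are not given in the sources used here. Deposited values are a normalized signal: the authors divided gene counts by 1 size factor per library (0.878 to 1.17), since every value is a whole multiple of 1 step (100% at a tolerance of 0.01 read). Dividing by the step gave recovered reads, which may be rounded estimates where a read matches more than 1 gene. The counting intervals do not cover that. The authors' deposited log2 fold changes were printed for comparison only. Of 19444 rows, 8 were moved sideways and left out, and 247 rows repeat a symbol.

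limma 3.58.1 in R 4.3.3, with trend and robust empirical Bayes, was fitted on log2(value + 1) for genes with a mean of at least 10 in the higher genotype, at a Benjamini-Hochberg adjusted p of 0.05, and was tested on simulated data. edgeR 4.0.16, DESeq2 1.42.0 and limma-voom were run on recovered reads, beside other pseudocounts, filters, scalings and leaving out each library. The precision of low genes is limited by their reads. Members and lists were chosen with earlier results of these data known, and motifs with the promoters in view. Named genes were all members and family genes, called partners and flanking genes, and of each other list the 3 called genes with the largest change, the largest opposite call and the uncalled gene with the highest mean over 6 libraries. Fyn, Lck, Cdkn3, Vcam1, Fcnb, S100a8, S100a9, Ltf and Lcn2 were named after their values were seen. So were the markers Cd3e, C1qb, C1qc, Emr1, Spic, Cd163 and Marco. Cdk2 and Patl1 were named as the uncalled partner and the uncalled flanking gene with the highest mean. Levels per kilobase used GENCODE vM21 transcripts (GRCm38) and promoters RefSeq (GRCm38.p6), so no position was read from mm9.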

Additional observations from a re-analysis of the deposited data

How the results depend on the processing

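No paired analysis was possible because the labels give the genotypes no shared replicate numbers. The count of genes that differed, 5091, ran from 3915 to 5280 over the 15 alternatives. Of 12 T and NK genes, 3 passed, and 1 passed with a mean of at least 50, with quantile normalization and with limma-voom; without 1 library the T and NK count ran from 1 to 3, the count of flanking genes from 5 to 7 and that of B lineage genes from 5 to 10. The cause was not tested. The counts of the other lists stayed within 1.5 times under all alternatives. With a pseudocount of 5, the log2 fold changes of Ms4a4c, Ms4a6b and Ms4a6d were 5.19, 5.78 and 4.96, since a larger added value shrinks low levels. That of Ms4a7 ran from -0.34 to 0.63 over the alternatives, and without 1 library from -0.22 to 0.63. Without 1 library, that of Ms4a4b ran from 1.86 (without wild type replicate 3) to 3.48 (without wild type replicate 2), that of Ms4a4c from 5.84 (1) to 7.26 (2), that of Ms4a6b from 6.21 (3) to 7.57 (1) and that of Ms4a6d from 5.78 (3) to 7.24 (1), with the wild type replicate left out in parentheses. Ms4a15 passed with DESeq2 (adjusted p = 0.0193), while its adjusted p ran up to 0.447 under other alternatives. The median over all genes ran from -0.07 to 0.15, and 47.2% to 55.4% of calls were higher. The wild type levels of Ms4a4c, Ms4a6b and Ms4a6d rest on 8 to 15 reads, which limits their ratios.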
